A study of Oryza sativa with 16 samples.

Results

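Binding of OsHOX24 was compared between desiccated and water-kept seedlings of H49, a transgenic rice line that over-expresses this transcription factor. The authors deposited a list of ChIP-seq summits for each library, and 4 such lists were used, 2 from H49 desiccation and 2 from H49 control. A summit is the position inside a peak where enrichment was highest. All seedlings were 3 weeks old, and both the desiccation between or on dry paper and the stay in water lasted 3 h. Summits of the 4 lists on chromosomes 1 to 12 that lay up to 200 bp apart were merged into regions, and a region was called in a library whose list held 1 of its summits. This gave 8387 regions, beside 16253 when all 8 lists of the series were merged. Desiccation-only regions were called in both desiccation libraries and in neither control library (260 regions), control-only regions in both control libraries and in neither desiccation library (521 regions), and shared regions in all 4 libraries (469 regions). The 4 lists of wild-type (WT) seedlings under the same 2 treatments, which had no part in choosing these regions, served as a further readout.

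OsHOX24 belongs to the homeodomain-leucine zipper proteins of subfamily I, a plant-specific family. The homeodomain contacts DNA and the leucine zipper next to it pairs 2 molecules, so that these factors bind short AT-rich elements as dimers. Many members of the subfamily are known for responses to water deficit and abscisic acid. H49 is 1 transgenic line, its transgene driven by a promoter not given in the sources used here. Both genotypes carry the endogenous OsHOX24 gene, and the same anti-OsHOX24 antibody was used on both, so neither is a background without antigen. Summit lists hold no expression values, so the over-expression itself was not checked. The regions are given by position only, because gene positions and sequence on the build of the lists (rice MSU version 7) were not used here.

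The desiccation lists were shorter than the control lists. They held 2336 and 2359 summits in H49 desiccation replicates 1 and 2, against 4236 and 3380 in H49 control replicates 1 and 2. The mean length was 2348 ± 16.3 in desiccation and 3808 ± 605 in control (SD, n = 2 each), and the ratio of geometric means, desiccation over control, was 0.620. The 2 desiccation lists lay below both control lists, but 2 libraries against 2 cannot give an exact two-sided permutation p below 0.333, so no test was made of this or of any other difference between treatments. The median −log10 p of a list, a value the authors' peak caller gave each summit, was 6.37 and 7.71 in desiccation and 6.37 and 7.81 in control. This value grows with the number of reads, which is unknown, and is used here only within a list. Separate plants for the replicates are not recorded in the labels.

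Most regions were called in few libraries. Of the 8387 regions, 5946 (70.9%) were called in 1 library, 1437 in 2, 535 in 3 and 469 in all 4. The desiccation-only class made up 3.10% of all regions, the control-only class 6.21% and the shared class 5.59%. Both desiccation libraries called 905 regions, of which 28.7% were desiccation-only, 19.4% had a summit in 1 control library and 51.8% were shared. Both control libraries called 1349 regions, of which 38.6% were control-only, 26.6% had a summit in 1 desiccation library and 34.8% were shared. By Jaccard index (regions called in both libraries over regions called in either) the desiccation replicates stood at 0.239 and the control replicates at 0.215. The 4 pairs across treatments ranged from 0.139 to 0.197, below both replicate pairs, but lists of unlike length also limit this index. Of the regions of desiccation replicate 1, 38.8% were called in desiccation replicate 2, 41.3% in control replicate 1 and 40.4% in control replicate 2. For desiccation replicate 2 the shares were 38.4% in its own replicate, 34.1% in control replicate 1 and 37.8% in control replicate 2. Each control list had its largest share with the other control list. List length enters these shares too, because a longer list can hold more of the regions of another. The control lists held 4236 and 3380 summits and desiccation replicate 2 held 2359, and the part of length was not tested.

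The larger number of control-only regions went with the longer control lists. When the 2336 summits with the highest −log10 p were taken from each list, 301 regions were desiccation-only (4.85% of 6206), 216 were control-only (3.48%) and 414 were shared (6.67%). The order of the 2 one-treatment classes was thus turned round. The lowest −log10 p kept was 3.01 and 3.23 in the desiccation lists, against 5.94 and 6.07 in the control lists. With a common limit of at least 5 in place of equal length, 164 regions were desiccation-only (2.51%) and 405 control-only (6.21%). The value depends on depth, which is unknown, so neither setting fully matches the lists. The order at equal length was not kept when 10 crowded bins of 100 kb, described with the chromosomes, were left out. The bins were picked for holding desiccation-only regions, so leaving them out lowers that class by construction. Without them the equal-length counts were 204 desiccation-only, 216 control-only and 412 shared. Without these and the 6 bins crowded with control-only regions 206 were control-only and 408 shared, with 5 fewer desiccation-only than control-only regions, and both settings were chosen after seeing the data. With 2336 summits a list and no bin left out, 258 of the 260 desiccation-only regions were still called in both desiccation lists. Of the 521 control-only regions, 216 (41.5%) were still called in both control lists. This contrast follows from the cut, which is the length of desiccation replicate 1. Desiccation replicate 2 held 2359 summits and the control lists 4236 and 3380, so the cut fell almost only on the control lists. Of the 301 desiccation-only regions at equal length, 43 had a control summit further down the full control lists. With 1000 summits a list the counts were 74 desiccation-only, 50 control-only and 308 shared. With 500 summits they were 13, 15 and 239 in the same order. The difference between the 2 one-treatment classes was therefore −261 with all summits and −241 with the common limit. It was 85 at equal length, −12 at equal length without the 10 crowded bins and −2 among the 500 highest of each list.

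**Figure D1:**
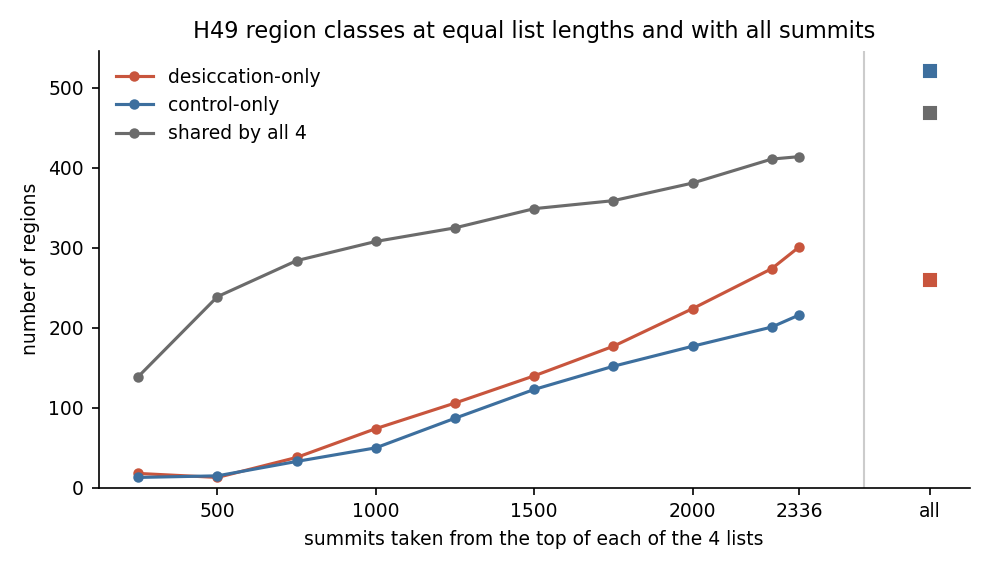
Number of H49 regions in each class (vertical axis) against the number of summits taken from the top of each of the 4 lists by −log10 p (horizontal axis); squares at the right use all summits. The desiccation-only line reaches 301 and the control-only line 216 at 2336 summits a list, while with all summits the counts are 260 and 521.

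One-treatment regions were of middling strength within their own lists and shared regions were strong. Desiccation-only regions had a median −log10 p of 5.91 and 8.26 in H49 desiccation replicates 1 and 2, which put their medians at percentiles 44.1 and 54.6 of those lists. Control-only regions had medians of 6.63 and 7.18 in H49 control replicates 1 and 2, at percentiles 57.2 and 44.8. Both classes thus centred near the middle of the lists. Shared regions had medians of 20.4 and 24.2 in the desiccation lists and 18.5 and 62.4 in the control lists, at percentiles between 86.4 and 91.9.

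The share of regions without a call under the other treatment was lower at higher strength. Regions called in both libraries of a treatment were grouped by the lower of their 2 within-list percentiles. Among the 171 regions above percentile 90 in both desiccation lists, 3 (1.75%) had no control summit and 160 (93.6%) were called in both control lists. Among the 250 whose lower percentile was at most 25, 118 (47.2%) had no control summit. Among the 242 regions above percentile 90 in both control lists, 2 (0.826%) had no desiccation summit and 224 (92.6%) were called in both desiccation lists. Among the 344 whose lower percentile was at most 25, 218 (63.4%) had no desiccation summit. The regions that both libraries of a treatment ranked highest were therefore nearly all called under the other treatment as well.

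**Figure D2:**
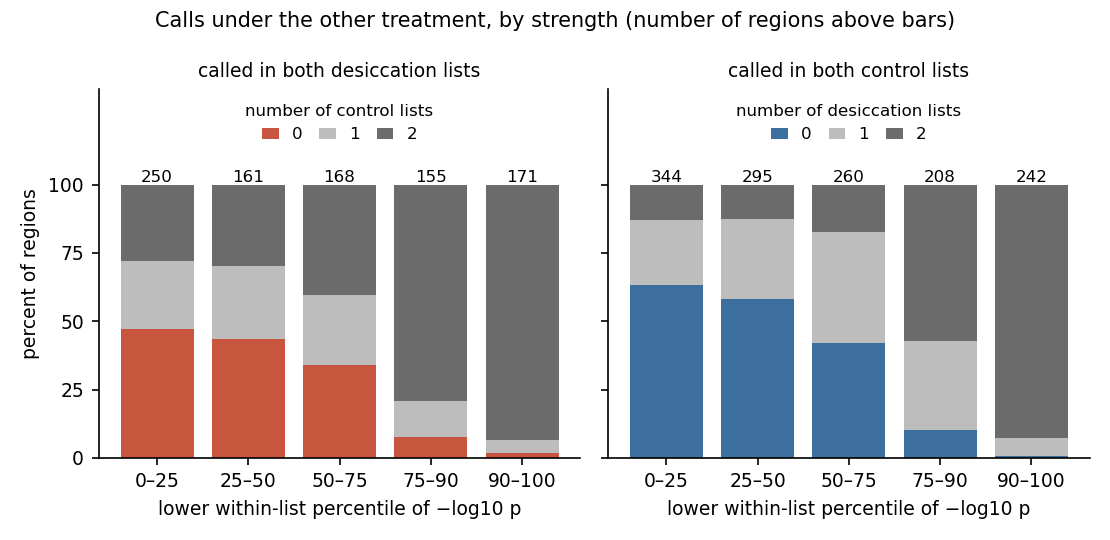
Regions called in both desiccation lists (left) or both control lists (right), grouped on the horizontal axis by the lower of their 2 within-list percentiles of −log10 p; bars show the percent called in 0, 1 or 2 lists of the other treatment and the number of regions stands above each bar. Regions without any summit under the other treatment make up 47.2% (desiccation) and 63.4% (control) of the weakest group and 1.75% and 0.826% of the strongest.

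For each class the 8 regions whose lowest percentile over the required lists was highest are named, so the shared ones below are high in all 4 H49 lists by choice. Chr9:21917173-21917191, whose 4 summits lay within 18 bp, had −log10 p of 117 and 166 in desiccation and 91.6 and 413 in control. Chr2:21656809-21656830 had 103 and 150 in desiccation, against 93.9 and 299 in control. Chr12:1793414-1793442 came next, with 162 in desiccation replicate 2 and 105 and 328 in the control lists. These 3 regions stood above percentile 99 in every one of the 4 lists. Chr3:5944573-5944632 was the highest summit of both desiccation lists, at 152 and 271, and had 79.5 and 289 in control. Chr2:21093588-21093612 (74.3 and 111 in desiccation, 80.1 and 338 in control) and Chr6:28400735-28400755 (72.4 and 108 in desiccation, 66.9 and 311 in control) followed. The last 2 of the 8 were Chr1:39198240-39198261 and Chr12:21960399-21960418, at lowest percentiles of 98.3 each. Of the 8 regions, 7 were also called in all 4 WT lists, and Chr1:39198240-39198261 was called in 3 of them.

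The strongest desiccation-only regions had control summits close by. Chr12:20485991-20486009 had −log10 p of 46.6 and 92.3 in H49 desiccation replicates 1 and 2, at percentiles 96.7 and 97.5. The nearest control summits lay 932 bp away in control replicate 1, at −log10 p 56.1 (percentile 99.3 of that list), and 935 bp away in control replicate 2. The 2 treatments thus had strong summits less than 1000 bp apart. Chr4:32891694-32891782 had 39.1 and 82.5 in desiccation, and control summits lay 1470 bp and 1467 bp away, the nearer with −log10 p 81.2 in control replicate 2. Chr12:8532610-8532705 had 38.6 and 64.2 in desiccation, with control summits at 516 bp (−log10 p 31.0, control replicate 1) and 816 bp. These 3 were the only desiccation-only regions above percentile 90 in both lists, and none was far from a control summit. The next ones were weaker. Chr5:12981761-12981778 had 13.6 and 27.6, and a control summit lay 2440 bp away. Chr12:5612185-5612191 had 12.8 and 30.1, and a control summit lay 2077 bp away. The other 3 named regions covered distances both shorter and longer than these. Chr3:1519531-1519593 (12.9 and 18.5) lay 300 bp from a control summit in control replicate 1. Chr10:10831034-10831047 (11.4 and 23.2) lay 509 bp from a control summit in control replicate 2. Chr12:5645365-5645388 (12.5 and 16.2) was the most isolated of the 8, at 23922 bp from the nearest control summit. In all, 7 of the 8 had a control summit within 2500 bp. Over the whole class, counted at other limits, 69 of 260 (26.5%) had one within 1000 bp and 132 (50.8%) within 5000 bp. When summits up to 500 bp apart were merged, Chr3:1519531-1519593 and Chr10:10831034-10831047 no longer were desiccation-only, and the other 6 were. In WT, 7 of the 8 were called in a desiccation list and 7 in a control list, where all regions, most of them called in 1 library, had 30.9% and 52.7%. Of the 8, 4 lie in the 10 crowded bins, in which WT calls came mostly from replicate 2 of either treatment. Chr12:20485991-20486009 was called in WT desiccation replicate 1, at percentile 88.2 of that list, and in WT control replicate 2, at −log10 p 118 and percentile 97.4. Chr4:32891694-32891782, called in WT desiccation replicate 1 at 15.9, was the only one of the 8 absent from both WT control lists.

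The 8 strongest control-only regions had lowest percentiles from 82.5 to 91.9, where the 8 desiccation-only regions spanned 78.8 to 96.7. Chr12:20527380-20527457 had −log10 p of 22.3 and 62.7 in H49 control replicates 1 and 2, and the nearest desiccation summit lay 6471 bp away. It lies less than 100 kb from the leading desiccation-only region. Chr9:4727263-4727268 had 31.0 and 58.3 in control, and a desiccation summit with −log10 p 76.5 lay 759 bp away in desiccation replicate 2. Chr2:30285749-30285843 had 13.4 and 36.1 in control, and a desiccation summit with −log10 p 6.83 lay 537 bp away in desiccation replicate 1. The neighbour on chromosome 9 was strong and the one on chromosome 2 was close to the median of its list. Chr1:8545886-8545928 had 17.8 and 23.2 in control, with the nearest desiccation summit at 8865 bp. Chr11:27667910-27667984 had 22.4 in control replicate 2, with the nearest desiccation summit at 988 bp. Chr1:8545886-8545928 was the most isolated of the 8. Chr4:35000645-35000664 (19.4 and 21.6) lay 258 bp from a desiccation summit, Chr4:13468253-13468339 (25.3 and 21.1) 2171 bp and Chr1:16128943-16128976 (14.6 and 20.9) 1449 bp. Of these 8, 6 had a desiccation summit within 2500 bp, and over the whole class 230 of 521 (44.1%) had one within 5000 bp. Merging at 500 bp ended the call of Chr4:35000645-35000664 alone. In WT, 4 of the 8 were called in a desiccation list, 5 in a control list and 3 in no list, where all regions had 30.9%, 52.7% and 39.6%. Chr12:20527380-20527457, the leading one, was among those without any WT call, while Chr9:4727263-4727268 had 7.98 in WT desiccation replicate 1 and 41.3 and 87.5 in the WT control lists.

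Over the whole classes, distances to the other treatment spanned a wide range. Desiccation-only regions lay a median of 4608 bp from the nearest control summit, from 202 to 268699 bp, with 40 of 260 (15.4%) within 500 bp and 69 (26.5%) within 1000 bp. Control-only regions lay a median of 7426 bp from the nearest desiccation summit, from 207 to 1275303 bp, with 53 of 521 (10.2%) within 500 bp and 19.4% within 1000 bp. The control lists hold more summits, and the part of list length in this difference was not tested. At the edge of the 200 bp limit, 6 desiccation-only and 5 control-only regions had their nearest summit of the other treatment at 220 bp or less. The 2 summits of a desiccation-only region lay a median of 56 bp apart and those of a control-only region 72 bp. In shared regions the median offset between summits of 2 libraries was 23 bp between the desiccation replicates, 20 bp between the control replicates and 19 to 22 bp across treatments.

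**Figure D3:**
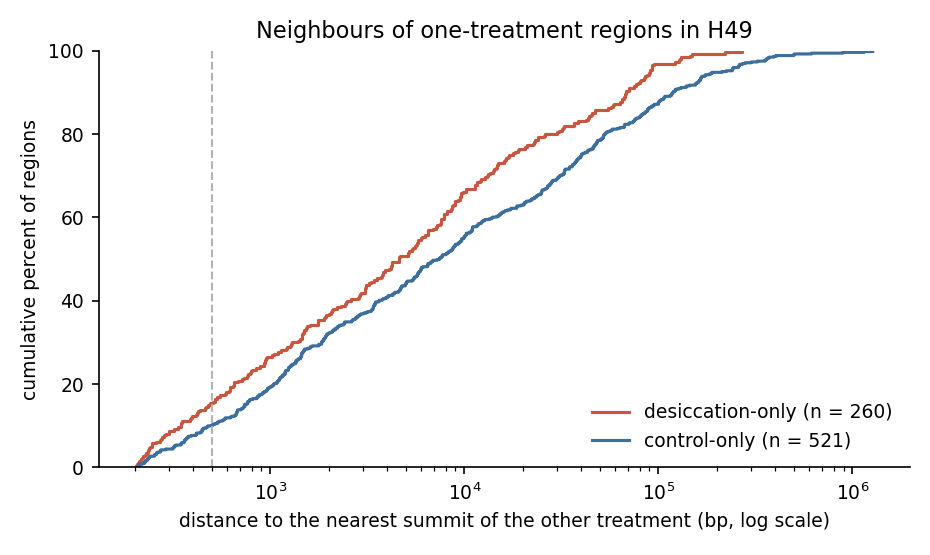
Cumulative percent of desiccation-only and control-only regions (vertical axis) by the distance to the nearest summit of the other treatment in bp (horizontal axis, log scale); the dashed line stands at 500 bp. At 500 bp 15.4% of desiccation-only and 10.2% of control-only regions have such a summit.

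A part of the desiccation-only regions was crowded into a few stretches, as was a part of the shared regions, while few control-only regions were. Chromosome 10 held 39 of the 260 desiccation-only regions (15.0%), against 20 of the 521 control-only regions (3.84%) and 6.08% of all regions. Chromosome 12 held 18 desiccation-only regions (6.92%) and 9 control-only regions (1.73%), beside 72 of the 469 shared regions (15.4%) and 5.03% of all regions. Chromosome 2 held 11.2% of desiccation-only regions, against 17.1% of control-only, 7.89% of shared and 12.9% of all regions. In bins of 100 kb, 10 bins, called crowded here, held at least 4 desiccation-only regions each and together 94 of the 260 (36.2%), while 6 bins held at least 4 control-only regions and together 25 of the 521 (4.80%). These bins were chosen by the number of one-treatment regions, so their H49 counts are a description. The other 166 desiccation-only regions lay elsewhere, and 134 of the 159 bins with a desiccation-only region held 1. For shared regions, 9 bins held at least 4 each and together 100 of the 469 (21.3%). The largest number in a bin was 26 for both classes. In 10 dense bins, those whose share of a list's summits averaged 0.5% or more over the 4 H49 lists, lay 64 desiccation-only regions (24.6%), 0 control-only regions and 80 shared regions (17.1%), beside 5.66% of all regions. Of these bins, 5 were also among the 10 crowded ones, and there each control list held under 0.5% of its summits, so these bins met the limit through the desiccation lists and the counts in them are a description too.

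The most crowded stretch lay on chromosome 10, where 26 desiccation-only regions fell between positions 10802323 and 10897984. Their bin held 42 and 82 summits in the desiccation lists, against 0 and 16 in the control lists. A second stretch on chromosome 10, from 20451943 to 20483607, held 7 regions, with 13 and 22 summits in the desiccation lists and 0 in both control lists. Both stretches were called under desiccation in far more places than in control. On chromosome 2, 13 regions fell between 14240198 and 14287574, and the bin held 24 and 44 summits in desiccation, against 0 and 6 in control. On chromosome 1, 12 regions fell between 33500345 and 33582086, and on chromosome 12, 9 regions between 5609353 and 5653730. The remaining 5 bins, on chromosomes 4, 5, 6 and 8, held 4 to 7 desiccation-only regions each. Over the 10 bins H49 desiccation replicates 1 and 2 had 183 and 367 summits, 7.83% and 15.6% of their lists, and H49 control replicates 1 and 2 had 11 and 61, 0.260% and 1.80% of theirs. The desiccation-only regions in these bins had a median −log10 p of 5.26 and 10.6 in desiccation replicates 1 and 2, and the 166 elsewhere 6.40 and 7.31.

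The WT lists, which had no part in choosing these bins, did not split by treatment there. WT desiccation replicates 1 and 2 had 13 and 441 summits in the 10 bins, 0.483% and 20.3% of their lists. WT control replicates 1 and 2 had 31 and 318 in lists of 9345 and 3166. Replicate 2 held a larger share than replicate 1 in all 4 groups, H49 included. In WT desiccation replicate 1, 9 of the 10 bins held no summit. On the 26-region stretch of chromosome 10 the WT counts were 0 and 102 in desiccation and 11 and 72 in control. The part of the WT replicate in these counts was not tested, and values without the 10 bins are given beside the WT results.

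**Figure D4:**
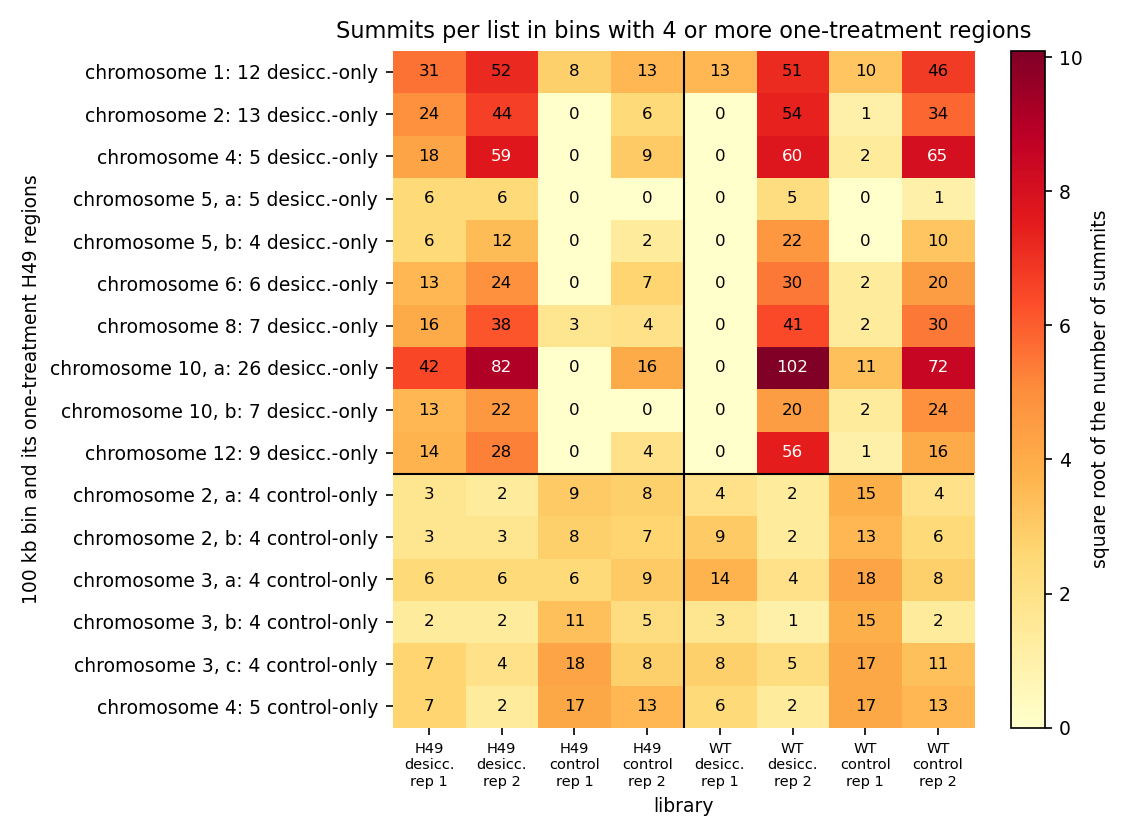
Number of summits per list (printed in each cell; colour shows its square root) in the 100 kb bins that hold at least 4 desiccation-only (upper 10) or at least 4 control-only (lower 6) H49 regions; columns are the 4 H49 lists and the 4 WT lists, with desiccation left of control. In the upper bins both H49 desiccation lists exceed both H49 control lists, while in WT replicate 2 of each treatment exceeds replicate 1.

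Looked up in the WT lists, control-only regions of H49 were called more often in control than in desiccation. Of the 521, WT desiccation replicates 1 and 2 called 145 (27.8%) and 52 (9.98%), and WT control replicates 1 and 2 called 356 (68.3%) and 191 (36.7%). The 2 WT treatments did not overlap in these counts. Over all 8387 regions the 4 lists called 19.9%, 16.9%, 41.0% and 26.1% in the same order, so the control lists also called more of the regions in general, and WT control replicate 1 had the longest list of all. Without that list the share called in WT control was 36.7%, still above both desiccation shares. At least 1 WT desiccation list called 172 (33.0%) and at least 1 WT control list 404 (77.5%), against 30.9% and 52.7% of all regions. Most of all regions were called in 1 H49 library and every control-only region in 2, so these shares are not matched.

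The WT calls of desiccation-only regions of H49 did not separate by treatment library by library when all summits were used. Of the 260, WT desiccation replicates 1 and 2 called 68 (26.2%) and 109 (41.9%), and WT control replicates 1 and 2 called 59 (22.7%) and 115 (44.2%). The treatments overlapped, and replicate 2 was the higher of each. At least 1 WT desiccation list called 170 (65.4%) and at least 1 WT control list 154 (59.2%), which put both shares above the 30.9% and 52.7% of all regions. Split by location, the 94 regions in the 10 crowded bins were called 0 and 75 times in WT desiccation and 4 and 64 times in WT control. The 166 regions elsewhere were called 68 (41.0%) and 34 (20.5%) times in WT desiccation and 55 (33.1%) and 51 (30.7%) times in WT control. Shared regions were called in 72.3% and 79.5% of cases by WT desiccation and in 90.8% and 92.5% by WT control, and 2 of the 469 were called in no WT list. No WT list called 40 of the 260 desiccation-only regions (15.4%) and 92 of the 521 control-only regions (17.7%), against 3324 of all 8387 regions (39.6%). Both classes require calls in 2 H49 libraries, while 70.9% of all regions were called in 1. The shares over all regions are therefore not a matched comparison.

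**Figure D5:**
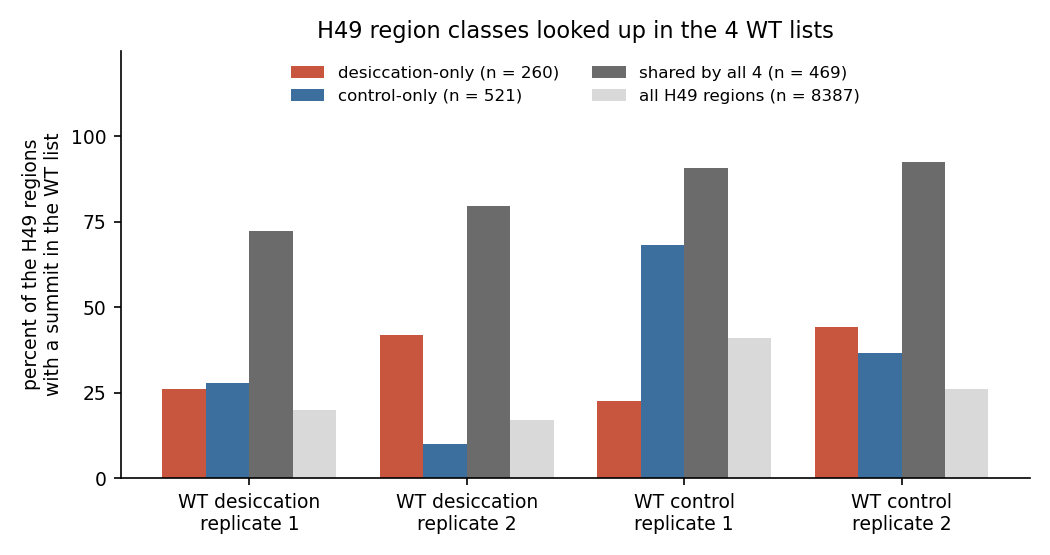
Percent of H49 regions (vertical axis) that hold or lie within 200 bp of a summit in each of the 4 WT lists (horizontal axis), for the 3 classes and for all 8387 H49 regions. Control-only regions reach 68.3% and 36.7% in the WT control lists and 27.8% and 9.98% in the WT desiccation lists, while desiccation-only regions range from 22.7% to 44.2% without a split by treatment.

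With equal numbers of summits in every list, H49 classes outside the crowded bins were called more often under their own treatment in WT. The H49 lists were limited to their 2336 highest summits and the WT lists to 2172, the length of the shortest. Over all 301 desiccation-only regions, at least 1 WT desiccation list called 63.5% and at least 1 WT control list 34.9%; by library the shares were 27.2% and 40.2% in WT desiccation and 9.30% and 27.9% in WT control, which overlapped. Of the 204 desiccation-only regions outside the 10 bins, WT desiccation replicates 1 and 2 called 82 (40.2%) and 43 (21.1%), and WT control replicates 1 and 2 called 28 (13.7%) and 33 (16.2%). Of the 216 control-only regions, WT desiccation called 57 (26.4%) and 32 (14.8%), and WT control called 96 (44.4%) and 71 (32.9%). In neither class did the WT treatments overlap, and over all 5756 regions outside the bins the shares were 22.1% and 18.4% in WT desiccation and 24.7% and 23.5% in WT control. The 97 desiccation-only regions inside the bins were called 0 and 78 times in WT desiccation and 0 and 51 times in WT control. The bins were left out after these values were seen.

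Regions one-sided in both libraries of both genotypes were fewer on the desiccation side than on the control side. With all summits, 4 of the 260 desiccation-only regions of H49 were called in both WT desiccation lists and in neither WT control list. Of the 521 control-only regions, 77 were called in both WT control lists and in neither WT desiccation list. Over all 8387 regions the same WT criteria were met by 28 and 407. Most of all regions were called in 1 H49 library, so this comparison is not matched. The WT desiccation lists held 2690 and 2172 summits and the WT control lists 9345 and 3166, and the part of list length was not tested. The regions named next were chosen after their values were seen. Chr2:28989671-28989823 had −log10 p of 8.16 and 9.61 in H49 desiccation and 9.47 and 5.17 in WT desiccation. Chr8:23622759-23622828 had 10.4 and 9.13 in H49 desiccation and 6.41 and 14.3 in WT desiccation. Chr5:6781997-6782032 had 7.03 and 7.74 in H49 desiccation and 6.70 and 9.03 in WT desiccation. All 3 were of middling strength, and the fourth, Chr3:31604165-31604348, lay 206 bp from an H49 control summit. On the control side the leading region was Chr1:8545886-8545928, already described, with 24.4 and 10.9 in WT control. Chr7:1503843-1503855 had 10.5 and 16.1 in H49 control and 17.7 and 17.4 in WT control, and the nearest H49 desiccation summit lay 10992 bp away. Chr4:34981340-34981507 had 28.4 and 15.2 in H49 control and 38.5 and 10.1 in WT control, and the nearest H49 desiccation summit lay 961 bp away.

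Among the 469 shared regions the order by −log10 p was alike in the 4 libraries. Spearman's rho over these regions, which share libraries and are not independent, was 0.868 between the desiccation replicates, 0.783 between the control replicates and 0.721 to 0.867 across treatments, so the replicate pairs were within or just above the range of the pairs across treatments. Ranked among the same 469 regions in each library, 107 (22.8%) stood higher in both desiccation lists than in both control lists and 71 (15.1%) stood lower in both, while 291 (62.0%) overlapped. With 2 libraries against 2, separation in either direction would arise in a share of 0.333 if the libraries were interchangeable. Whether the counts differ from this was not tested. Dense bins contained 28 of the 107 regions and 2 of the 71. The examples come from those with the widest gaps and were picked with their values known. Chr12:24682080-24682094 ranked 233 and 208 in desiccation, against 365 and 333 in control. Chr4:20138256-20138314 ranked 227 and 283 in desiccation, against 112 and 40 in control. Chr3:35625422-35625473 ranked 279 and 251 in desiccation, against 139 and 121 in control. The first stood higher under desiccation and the other 2 lower, and all 3 were called in all 4 H49 libraries.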

How the data were processed

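ChIP-seq summit lists of 8 libraries were used, and the 8 input samples were not analysed here. Per the series' design text, as part of the labels, the authors filtered reads with NGS QC Toolkit, mapped them to rice MSU version 7 with Bowtie2 and called peaks with MACS2 (version 2.1.1.20160309, per the submitters' processing notes). Peaks were called per library, as each has its own list. The sources do not state whether inputs served as background, or whether the Bedops step named in the design text entered the lists. The deposited value per summit was read as −log10 of the p-value, from the MACS2 summit format and a lowest value near 3 in every list. It is the authors' own value, rises with depth, and was used only within lists. Depth is unknown, so no detection limit is given, and absence from a list means only that no summit was called there. A peak name in H49 control replicate 1 was damaged; its position and value were used.

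Of 12332 H49 summits, 12311 lay on chromosomes 1 to 12. Positions count from 1; a region runs from its first to its last summit. A percentile is the share of a list at or below a value. The WT lists were matched within 200 bp of a region. The named regions are the 8 per class with the highest lowest percentile. Members, classes and named rules were chosen with earlier results of these data known. Merging and classing were tested on simulated summits of well-separated regions, and merging also at the 200 bp limit. Crowded stretches were not simulated, so the test does not cover them. Python 3.11.15, pandas 2.3.3 and scipy 1.17.1 were used. Alternatives changed the merging distance, the threshold, the number of summits per list and the libraries.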

Additional observations from a re-analysis of the deposited data

How the results depend on the processing

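The ratio of list lengths, desiccation over control, stayed below 1 under every alternative run, at 0.595 with −log10 p of at least 5, 0.560 without dense bins and 0.554 to 0.695 without a replicate. Same-numbered deviations of calls had a correlation of 0.0307 over 8387 regions, most of them called in 1 library. With the replicate number as a block the ratio was 0.620, equal by construction to the value without it, so it tells nothing about pairing. In the 10 crowded bins replicate 2 held a larger share of its list than replicate 1 in every group. Desiccation-only regions numbered 164 at −log10 p of at least 5, 85 in the upper 50% of each list, and 140, 74 and 13 with 1500, 1000 and 500 top summits a list. Control-only regions numbered 405 at −log10 p of at least 5, 220 in the upper 50% and 216 at equal length. With 2000, 1500, 1000 and 500 top summits they numbered 177, 123, 50 and 15. Shared regions numbered 308 and 239 with 1000 and 500. The difference, desiccation-only minus control-only, was −241 at −log10 p of at least 5 and −135 in the upper 50%. It turned to 85 at equal length and to 47, 17 and 24 with 2000, 1500 and 1000 top summits, but was −2 with 500. At equal length it was −12 without the 10 crowded bins (204 against 216 regions) and −5 without all 16 crowded bins, where 206 were control-only. The 10 bins were picked for desiccation-only regions, so leaving them out lowers that class by construction. With all summits, 166 desiccation-only regions lay outside the 10 bins. Top lists shorten the control lists more by construction. The numbers 500, 1500 and 2000, and leaving out crowded bins or WT libraries, were chosen after seeing the data.

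Without a library, its treatment needs only 1 call, so counts rise by construction. Desiccation-only regions numbered 323 to 1285, with 1285 and 1118 without H49 desiccation replicates 1 and 2. Control-only regions numbered 657 to 3021, with 2146 and 3021 without H49 control replicates 1 and 2. Shared regions numbered 522 to 674, and the difference ran from −2648 to 550, with 550 and 461 without H49 desiccation replicates 1 and 2.

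Called in at least 1 WT desiccation list were 65.4% of desiccation-only regions, 59.3% when merging at 100 bp, 73.0% at 500 bp, 2.69% when both lists were required and 26.2% to 41.9% without a list. In WT control the share was 59.2%, with 52.8%, 68.9%, 7.69% and 22.7% to 44.2% under the same settings. At equal length the shares of this class were 63.5% in WT desiccation and 34.9% in WT control. Control-only regions were called in WT desiccation in 33.0%, 4.80% when both lists were required and 9.98% to 27.8% without a list. In WT control they were called in 77.5%, 65.6% when merging at 100 bp, 89.9% at 500 bp, 57.4% at equal length, 27.4% when both were required and 36.7% to 68.3% without a list. Of 103 alternative values, 6 changed sign, all of the difference between the 2 classes. Another 46 moved, and 51 stayed within 1.5 times the count, the replicate SD of the ratio or the 95% exact binomial interval of the share. The planned shares of promoters and motifs were not run, as no genome of this build was used.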
